A study of Mus musculus with 12 samples.

Results

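Genes of DNA replication and mitosis were followed in dendritic cells (DC) of mice with a Cre-driven deletion of the TGF-beta receptor gene Tgfbr2 and of Cre- controls. The set holds 50 genes chosen by name, and a gene was measured where a probe set of the array was annotated with exactly 1 gene symbol, that of the gene. By that rule 45 of the 50 were measured, out of 14860 genes measured in all, and Pcna, Rrm2, Ccnb1, Cenpf and Ncapg were not analysed here. Plk1 had 2 probe sets and is represented by the one of higher mean.

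The 12 samples, 3 in each of 4 groups of C57BL/6 mice, were hybridised to Affymetrix Mouse Exon 1.0 ST arrays. The groups were splenic CD11c+ DC isolated with magnetic beads from Cre- controls or from Cre+ mice with the TGFBR2 deletion, and flow-sorted CD11c+CD103+ DC of the mesenteric lymph nodes (MLN) from Cre- or Cre+ mice, each MLN array being a pool of 4 mice. The study's title calls the targeting DC-specific. The promoter that drives Cre, the age and sex of the mice and the number of mice behind each splenic array are not given in the sources used here. Nothing in the labels says that splenic arrays came from separate mice, so p-values measure the spread between these arrays. A further label of the MLN Cre+ arrays names Cre- mice, and their title and genotype were followed instead.

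A cell copies its DNA once in S phase and divides it in mitosis. Cdc6 and Cdt1 load the MCM helicase on replication origins, Cdc45 and the GINS complex switch it on, and polymerases then copy the strands. E2F transcription factors and cyclin E drive entry into S phase, whereas cyclins A and B with the kinase Cdk1 drive mitosis, in which kinesin motors build the spindle and the checkpoint kinases delay separation until the chromosomes are attached. Conventional DC arise from dividing precursors, and part of the DC in lymphoid organs still divide. TGF-beta is known to hold many cell types in G1.

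Levels are log2 values of robust multi-array averaging (RMA), so a difference of 1 is a doubling. Array medians ran from 7.03 to 7.08 in spleen and from 6.74 to 6.89 in MLN, with an SD over probe sets of 2.37 to 2.42 and 1.80 to 1.91, so the tissues carry different value distributions and a level set across them depends on the scaling. The level of Tgfbr2 itself was 10.94 ± 0.02 in Cre- and 10.70 ± 0.03 in Cre+ splenic DC, and 9.58 ± 0.08 and 9.46 ± 0.08 in MLN DC (SD, n = 3 each), and neither difference passed the test. A gene-level value covers probes outside a deleted exon and does not measure the deletion. The Y-linked gene Eif2s3y measured 9.81, 9.84 and 10.07 in the 3 spleen Cre- arrays and 3.31, 3.03 and 3.19 in the 3 Cre+ arrays, and Kdm5d, also Y-linked, had means of 8.23 ± 0.19 and 4.31 ± 0.16 (SD, n = 3 each), so the genotypes of the spleen differed in sex and the effects of both cannot be told apart. In MLN, Eif2s3y measured 6.27, 7.94 and 8.06 in Cre- and 7.58, 7.03 and 8.20 in Cre+. Genes listed here as DC genes were measured in every group, although not each of them is restricted to DC. In spleen Cre- the class II gene H2-Ab1 was at 13.45 ± 0.03 and the DC growth factor receptor gene Flt3 at 11.35 ± 0.13. In MLN Cre- these genes were at 12.58 ± 0.05 and 10.24 ± 0.37 (SD, n = 3 each). Itgae, which encodes CD103, measured 8.0 ± 0.17 in MLN Cre-. The B cell genes Cd79b and Cd79a measured 13.04 ± 0.11 and 12.56 ± 0.14 in spleen Cre- and 12.52 ± 0.06 and 12.06 ± 0.07 in MLN Cre-, in the range of the DC genes, although levels of different probe sets are not comparable in amount.

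In splenic DC, replication and mitosis genes were higher in Cre+ than in Cre- mice. Of the 45 genes, 15 rose, 0 fell and 30 did not pass the threshold, whereas among all probe sets 1.24% rose and 0.93% fell, 2.17% in either direction. An unadjusted p under 0.05 was reached by 39 of 45, against 16.2% of all probe sets. The 45 genes had differences between 0.05 and 0.97 and a median of 0.50 against 0.01 over all 23332 probe sets. The difference was above 0 for 45 of 45 genes, and for 52.9% of all probe sets. In 39 of the 45 genes every Cre+ array lay above every Cre- array, which held for 12.4% of all probe sets. The test was limma's moderated test of the 4 group means over all 12 arrays, two-sided, and a gene was called at a Benjamini-Hochberg adjusted p under 0.05 over the whole array. A larger share of dividing cells and more RNA of these genes per cell cannot be told apart in such bulk samples.

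**Figure D1:**
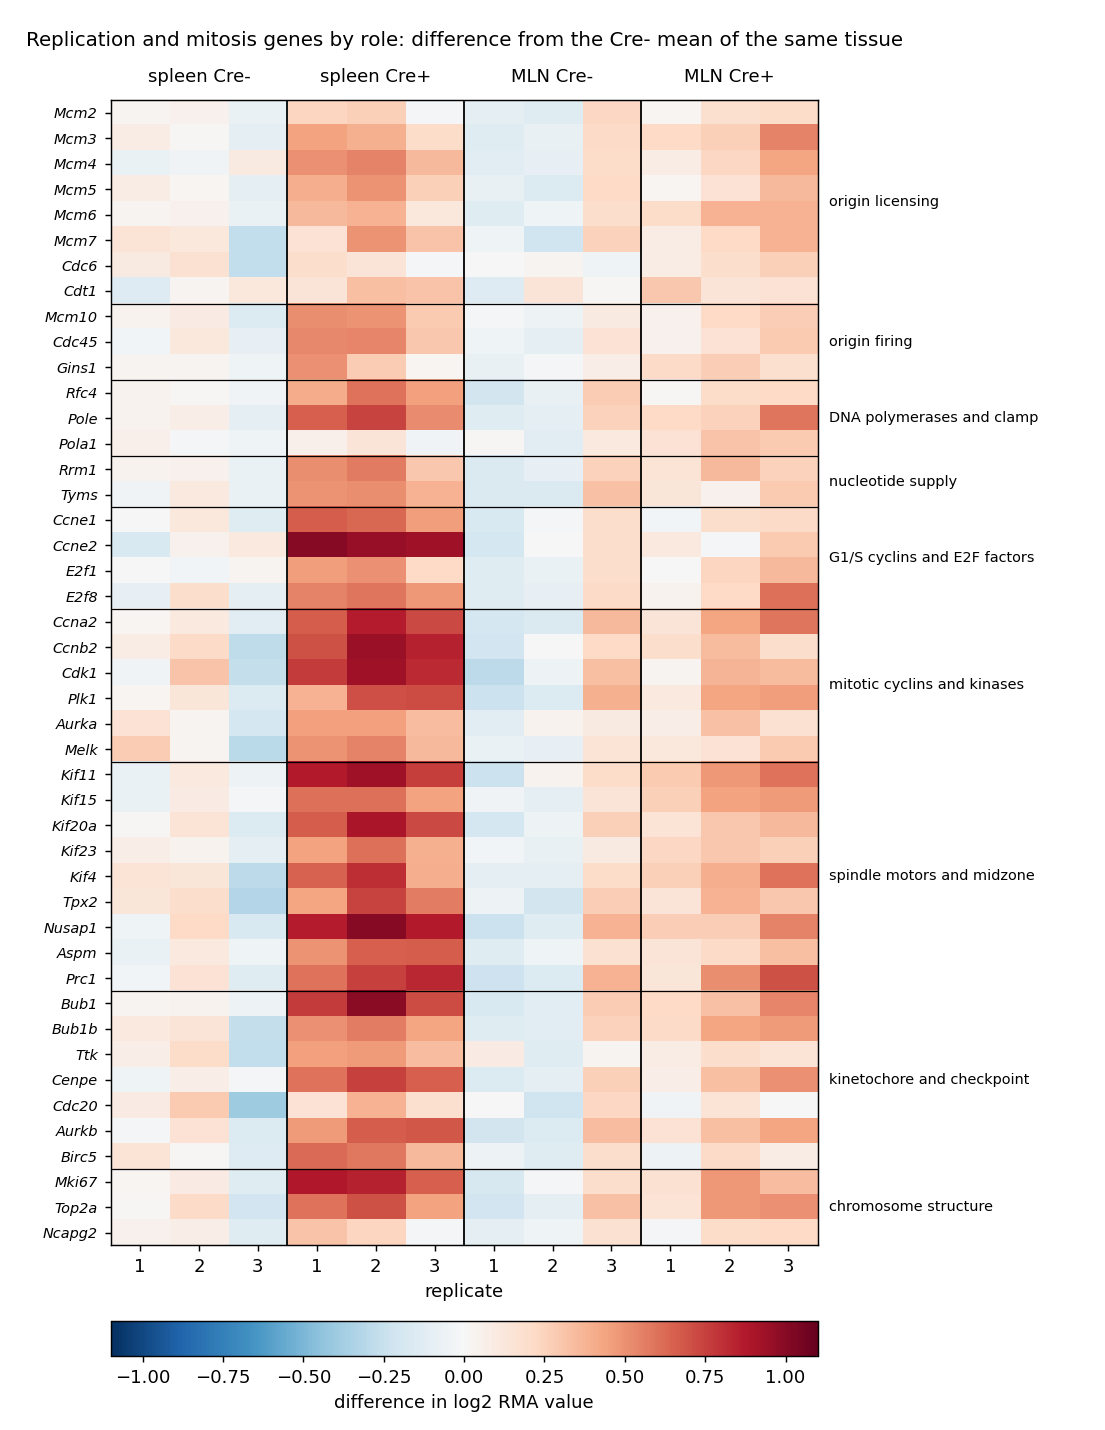
Difference of each array's log2 RMA value from the Cre- mean of the same tissue, for 45 genes in rows grouped by role and 12 arrays in columns (3 replicates a group). The 3 spleen Cre+ columns are the reddest, most so in the mitotic rows, and MLN Cre- replicate 3 is redder than the other MLN Cre- arrays.

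Origin licensing genes stood at the low end. None of 8 passed the threshold in spleen, with differences from 0.11 to 0.48, a median of 0.30 and an unadjusted p under 0.05 for 5 of 8 in limma. Mcm2, a subunit of the replicative helicase, measured 9.45, 9.47 and 9.35 in Cre- and 9.66, 9.68 and 9.40 in Cre+ spleen. Cre+ replicate 3 lay within the Cre- range, and the difference was 0.16 (SE 0.116, adjusted p = 0.558), with a 95% interval of -0.10 to 0.42. Of the other helicase subunits Mcm4 had the smallest adjusted p, at 0.069 for a difference of 0.48, and Mcm3, Mcm5, Mcm6 and Mcm7 had 0.35, 0.38, 0.28 and 0.32. The loading factors Cdt1 and Cdc6 had 0.26 and 0.11. Of the 3 genes of origin firing 0 passed, with the helicase activators Mcm10 at 0.43 (adjusted p = 0.0552), Cdc45 at 0.46 (adjusted p = 0.0609) and the GINS subunit Gins1 at 0.26.

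Among the polymerase and clamp loader genes 1 of 3 rose in spleen. Pole, the catalytic subunit of the leading strand polymerase, measured 7.73, 7.76 and 7.59 in Cre- and 8.35, 8.43 and 8.21 in Cre+. The groups did not overlap, and it rose by 0.64 (SE 0.132, adjusted p = 0.0372), which is 1.56-fold. The primase-associated polymerase gene Pola1 had 0.05 with an interval of -0.14 to 0.24, the smallest difference of the 45. Rfc4, a subunit of the loader of the sliding clamp, had 0.48 (adjusted p = 0.0743). Both nucleotide supply genes, the ribonucleotide reductase subunit Rrm1 and the thymidylate synthase gene Tyms, had 0.46 and did not pass (adjusted p = 0.0834 and 0.108). Pola1 and the kinesin gene Kif4 lie on the X chromosome, and neither passed.

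Both cyclin E genes rose in spleen, while the E2F genes E2f1 and E2f8 had 0.40 and 0.54 and did not pass. Ccne2 measured 6.21, 6.43 and 6.49 in Cre- and 7.38, 7.34 and 7.31 in Cre+. It showed the largest rise of the 45 genes, 0.97 (SE 0.118, adjusted p = 0.00515) or 1.96-fold, and its 3 Cre+ arrays lay closely together, far above the Cre- arrays. Its paralogue Ccne1 measured 7.02, 7.14 and 6.89 and 7.69, 7.65 and 7.48, also without overlap, a rise of 0.58 (SE 0.116, adjusted p = 0.0334).

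Of the 6 mitotic cyclin and kinase genes 3 rose in spleen. Ccna2, the cyclin of S phase and mitotic entry, measured 9.29, 9.38 and 9.15 in Cre- and 9.94, 10.13 and 10 in Cre+, a rise of 0.75 (SE 0.159, adjusted p = 0.04). The B-type cyclin gene Ccnb2 measured 9.81, 9.94 and 9.45 against 10.43, 10.68 and 10.58 and rose by 0.83 (SE 0.144, adjusted p = 0.0189). Cdk1, the kinase both cyclins activate, measured 8.69, 9.04 and 8.47 against 9.50, 9.66 and 9.55 and rose by 0.84 (SE 0.178, adjusted p = 0.04). In none of these genes did the groups overlap, and in each of them Cre- replicate 3 was the lowest array. Plk1, Aurka and Melk, kinases of mitotic entry and spindle assembly, had 0.61, 0.41 and 0.47, with adjusted p between 0.0811 and 0.116.

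Spindle genes had the most calls, with 6 of 9 risen in spleen and a median of 0.62. Kif11, the kinesin that pushes the spindle poles apart, measured 8.59, 8.77 and 8.60 in Cre- and 9.53, 9.59 and 9.42 in Cre+ and rose by 0.86 (SE 0.123, adjusted p = 0.00924), or 1.81-fold. Kif15, which can share that task, measured 7.17, 7.33 and 7.22 against 7.85, 7.85 and 7.68, a rise of 0.55 (SE 0.0972, adjusted p = 0.0195). For both motors the lowest Cre+ array stood above the highest Cre- array.

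The kinesins of the central spindle and of cytokinesis rose too. Kif20a measured 7.65, 7.79 and 7.49 in Cre- and 8.31, 8.54 and 8.37 in Cre+ spleen and rose by 0.76 (SE 0.128, adjusted p = 0.0165). Kif23 measured 8.94, 8.91 and 8.77 against 9.31, 9.48 and 9.26, the smallest of the 15 rises at 0.48 (SE 0.088, adjusted p = 0.0242). Neither gene had overlapping groups, and in both the second Cre+ array was the highest. Nusap1, a microtubule-bundling protein, measured 8.53, 8.80 and 8.41 against 9.44, 9.58 and 9.45 and rose by 0.91 (SE 0.163, adjusted p = 0.0213). Aspm, a protein of the spindle poles, measured 6.72, 6.90 and 6.74 against 7.28, 7.45 and 7.46 and rose by 0.61 (SE 0.102, adjusted p = 0.0165). The remaining spindle genes Prc1, Kif4 and Tpx2 had 0.73, 0.62 and 0.58 and did not pass (adjusted p = 0.0686, 0.0725 and 0.0977), although none of them had overlapping arrays.

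Of the 7 kinetochore and checkpoint genes 2 rose in spleen. The checkpoint kinase gene Bub1 measured 7.42, 7.43 and 7.33 in Cre- and 8.16, 8.38 and 8.11 in Cre+ and rose by 0.82 (SE 0.133, adjusted p = 0.0145). Cenpe, the kinesin of the kinetochore, measured 6.63, 6.75 and 6.67 against 7.28, 7.43 and 7.34 and rose by 0.67 (SE 0.13, adjusted p = 0.03). Cre- and Cre+ arrays of both genes lay apart. The checkpoint genes Bub1b and Ttk had 0.50 and 0.42, and Aurkb and Birc5 of the chromosomal passenger complex 0.61 and 0.51, none past the threshold. Cdc20, the activator of the anaphase-promoting complex, measured 8.06, 8.26 and 7.58 against 8.13, 8.35 and 8.15, with overlapping groups and a difference of 0.24 (interval -0.13 to 0.61).

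Mki67, the gene of the Ki-67 proliferation antigen that coats mitotic chromosomes, rose in spleen by 0.80 (SE 0.12, adjusted p = 0.0106), or 1.75-fold, from 7.53, 7.60 and 7.38 in the Cre- arrays to 8.39, 8.36 and 8.17 in the Cre+ arrays. Top2a, the topoisomerase that untangles replicated DNA, measured 9.28, 9.48 and 9.06 against 9.87, 9.97 and 9.71. Its groups did not overlap, but its difference of 0.58 did not pass (SE 0.161, adjusted p = 0.0997). The condensin subunit gene Ncapg2 had 0.18 (interval -0.08 to 0.44). Over the 25 mitotic genes 12 rose with a median of 0.61, and over the 20 replication, nucleotide and S phase entry genes 3 rose with a median of 0.41.

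**Figure D2:**
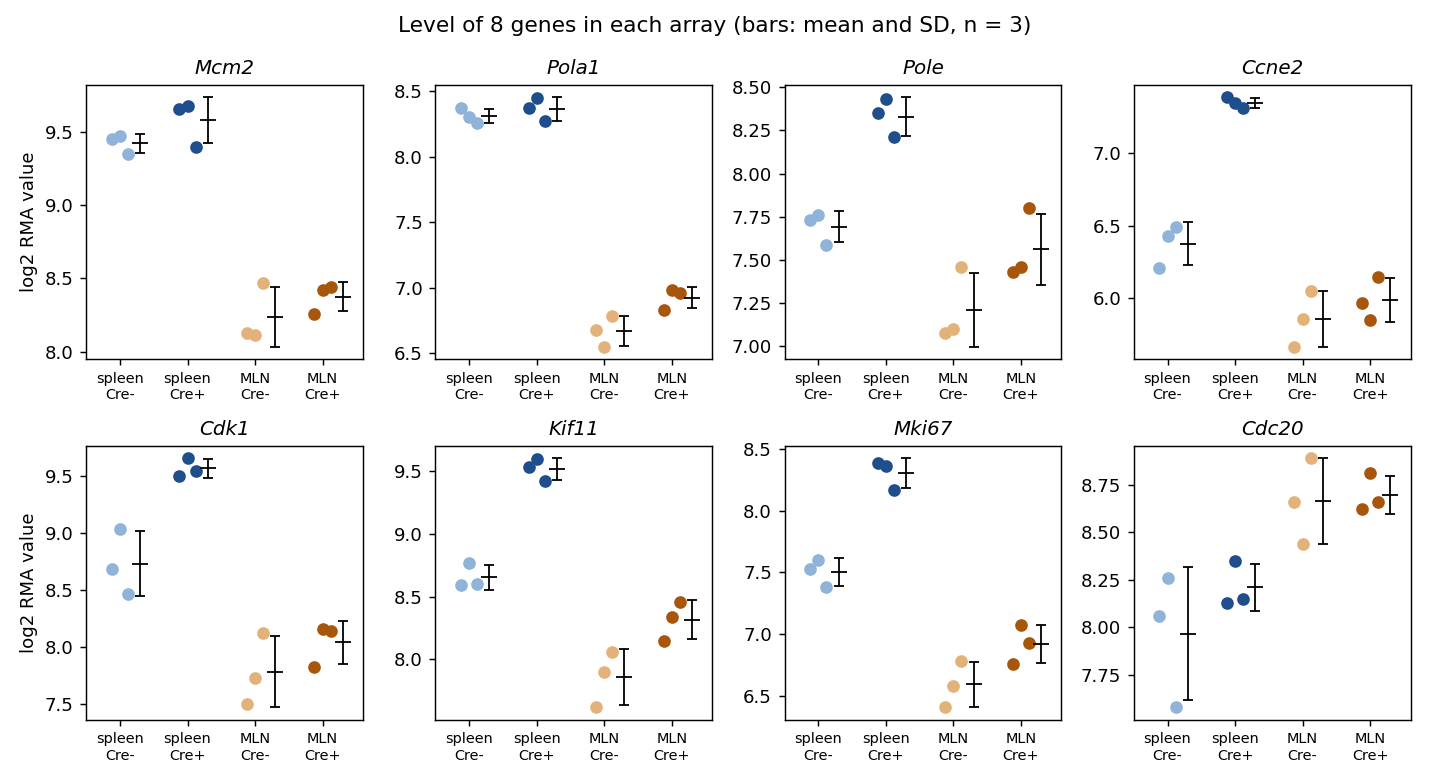
Log2 RMA value (vertical axis, own scale for each gene) of 8 genes in each of 12 arrays, with points for arrays and bars for the mean and SD of 3 arrays. In spleen the Cre+ arrays of Pole, Ccne2, Cdk1, Kif11 and Mki67 lie wholly above the Cre- arrays, whereas those of Mcm2, Pola1 and Cdc20 overlap.

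How many genes were called in spleen varied with the arrays used. Leaving out Cre+ replicate 2 left 3 calls, leaving out Cre- replicate 1 left 5, Cre+ replicate 1 left 7 and Cre- replicate 3 left 8, while 0.604%, 0.84%, 1.14% and 2.22% of all probe sets were called in those fits. A fit of only the 6 splenic arrays called 0 of the 45 in limma and 18 of all 23332 probe sets (0.0771%), where 37 of the 45 genes still had an unadjusted p under 0.05 against 14.8% of all probe sets and the lowest adjusted p was 0.0564. Ccne2, Kif11 and Mki67 were called in each of the 12 fits that left out 1 array. After quantile normalization over all arrays 9 of the 45 were called, with 1.23% of all probe sets, and 45 of 45 stayed above 0.

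Genes that are switched on together in the cell cycle are known to share short promoter motifs, and the promoters of 5 genes that rose are therefore shown beside those of Mcm5 and Mcm6, licensing genes that did not pass. E2F factors bind TTTCCCGC and close variants (here also TTTGGCGC, TTTCGCGC and TTTGCCGC), typical of replication genes. The repressor and activator complexes of mitotic genes are known to use the cell cycle genes homology region, TTTGAA, and the CCAAT box. RefSeq promoters (build GRCm38.p6) were found for 37 of the 45 genes, 39 promoters in all, and were searched on both strands over the 250 bases before the start site, in which the 3 kinds of motif did not overlap one another. The last 150 bases before the start follow, 5′ to 3′ on the gene's strand, with matches in capitals.
Mki67, chr7:135716380-135716529, - strand: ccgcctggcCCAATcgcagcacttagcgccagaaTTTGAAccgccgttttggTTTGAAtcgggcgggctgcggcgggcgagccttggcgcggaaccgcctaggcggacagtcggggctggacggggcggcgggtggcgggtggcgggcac
Cdk1, chr10:69352913-69353062, - strand: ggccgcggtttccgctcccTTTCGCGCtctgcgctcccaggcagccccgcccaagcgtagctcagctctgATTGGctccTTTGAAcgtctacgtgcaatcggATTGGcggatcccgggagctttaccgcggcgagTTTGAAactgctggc
Ccnb2, chr9:70421555-70421704, - strand: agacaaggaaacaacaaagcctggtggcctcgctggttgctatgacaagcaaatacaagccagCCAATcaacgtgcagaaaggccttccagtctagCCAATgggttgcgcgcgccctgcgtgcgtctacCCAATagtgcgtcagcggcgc
Kif15, chr9:122950931-122951080, + strand: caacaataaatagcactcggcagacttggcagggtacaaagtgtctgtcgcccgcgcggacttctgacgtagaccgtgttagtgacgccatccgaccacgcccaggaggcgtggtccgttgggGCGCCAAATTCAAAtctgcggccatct
Bub1, chr2:127831860-127832009, - strand: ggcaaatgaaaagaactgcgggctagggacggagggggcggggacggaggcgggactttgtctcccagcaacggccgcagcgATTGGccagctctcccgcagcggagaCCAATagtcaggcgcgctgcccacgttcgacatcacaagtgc
Mcm5, chr8:75109359-75109508, + strand: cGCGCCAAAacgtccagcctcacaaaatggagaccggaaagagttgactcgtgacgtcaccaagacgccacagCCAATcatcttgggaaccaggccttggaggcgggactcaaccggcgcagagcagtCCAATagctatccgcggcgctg
Mcm6, chr1:128359706-128359855, - strand: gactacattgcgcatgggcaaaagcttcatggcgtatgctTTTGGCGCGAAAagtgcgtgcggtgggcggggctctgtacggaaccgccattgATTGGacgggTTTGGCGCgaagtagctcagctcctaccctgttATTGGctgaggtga
Mki67 and Cdk1 each show 2 matches to TTTGAA, Ccnb2 shows 3 CCAAT boxes, and in Kif15 an E2F match directly abuts a match to TTTGAA, both read on the opposite strand. Mcm6 shows 3 E2F matches, of which a pair overlap, and Mcm5 and Cdk1 show 1 each. Mcm5 and Mcm6 each show 2 CCAAT boxes, as do Cdk1 and Bub1. Over the full window, TTTGAA was found in 9 of 22 promoters of mitotic genes and 3 of 17 of the replication and S phase entry genes, against 16.0% of all 32851 promoters. CCAAT was found in 17 of 22 and 11 of 17, against 33.8%. An E2F motif was found in 3 of 22 and 5 of 17, against 1.86%. Among the 11 promoters of genes that rose in spleen, 5 held TTTGAA, 8 held CCAAT and 2 an E2F motif. Among all 39 promoters, whether the gene rose or not, these counts were 12, 28 and 8. A match is a description of the letters, not of a bound site.

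In CD103+ DC of the MLN, 0 of the 45 genes passed the threshold in limma, against 0.0857% of all probe sets in either direction, and 17 of 45 had an unadjusted p under 0.05 against 11.9%. Differences were above 0 for 45 of 45 genes as deposited, from 0.03 to 0.45 with a median of 0.25 against 0.08 over all probe sets, whereas after quantile normalization, over all arrays or within each tissue, Mcm2, Rfc4 and Cdc20 turned below 0, and with every array shifted to 1 median Cdc20 did. Of all probe sets 66.7% were above 0. In 10 of the 45 genes every Cre+ pool lay above every Cre- pool, against 13.4% of all probe sets. In 41 of 45 genes the Cre+ pools lay above Cre- replicates 1 and 2, against 36.1% of all probe sets, and in 11 of 45 above Cre- replicate 3, against 25.5%. The median difference was 0.36 without MLN Cre- replicate 3, 0.19 without Cre- replicate 1 and 0.22 without Cre- replicate 2. It was 0.30, 0.23 and 0.22 without Cre+ replicates 1, 2 and 3, and 0 genes were called in each of these fits. After the 2 quantile normalizations or the shift to 1 median it was 0.15 to 0.18, against -0.01 to 0.01 over all probe sets.

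The motor genes Kif15, Kif11 and Kif23 had the smallest p-values in MLN, closely followed by Mcm6, Pola1 and Mcm3. None was called. Mcm6 had 0.32 (adjusted p = 0.352 in limma) and Mcm3 0.35 (adjusted p = 0.365). The pools did not overlap in 6 of 20 replication and S phase entry genes and in 4 of 25 mitotic genes, against 13.4% of all probe sets. Kif15 measured 6.17, 6.11 and 6.35 in Cre- and 6.47, 6.65 and 6.68 in Cre+, a difference of 0.39 (SE 0.0972, adjusted p = 0.219). Kif11 measured 7.62, 7.90 and 8.06 against 8.15, 8.34 and 8.46, a difference of 0.45 (SE 0.123, adjusted p = 0.253). The Cre+ pools of both genes lay above the Cre- pools, by a narrow gap from Cre- replicate 3. Kif23 measured 7.23, 7.18 and 7.36 against 7.49, 7.56 and 7.52 and was likewise without overlap, with 0.26 (SE 0.088, adjusted p = 0.352). Kif20a measured 7.11, 7.24 and 7.56 against 7.45, 7.60 and 7.66, and Aspm 6.20, 6.28 and 6.50 against 6.47, 6.54 and 6.66. In these 2 genes Cre- replicate 3 stood among the Cre+ pools. Nusap1 measured 7.39, 7.50 and 8.01 against 7.90, 7.90 and 8.18, with a difference of 0.37 (SE 0.163, adjusted p = 0.417).

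Mki67 measured 6.41, 6.58 and 6.78 in MLN Cre- and 6.76, 7.07 and 6.93 in MLN Cre+, a difference of 0.33 (SE 0.12, adjusted p = 0.373). Top2a measured 7.84, 7.95 and 8.37 against 8.20, 8.53 and 8.55, a difference of 0.37 (SE 0.161, adjusted p = 0.407). For both, Cre- replicate 3 overlapped the Cre+ pools. Bub1 measured 6.66, 6.71 and 7.11 against 7.05, 7.15 and 7.37 and Cenpe 5.99, 6.04 and 6.40 against 6.21, 6.47 and 6.64, with differences of 0.36 and 0.30. The same overlap occurred in these checkpoint and kinetochore genes.

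The mitotic cyclins and Cdk1 were not called in MLN, and their intervals reached down to 0.03 or below 0. Ccna2 measured 8.15, 8.18 and 8.70 in Cre- and 8.48, 8.77 and 8.93 in Cre+, a difference of 0.38 with a 95% interval of 0.03 to 0.74. Ccnb2 measured 8.33, 8.54 and 8.76 against 8.73, 8.89 and 8.73, a difference of 0.24 (interval -0.08 to 0.56). Cdk1, their partner, measured 7.50, 7.73 and 8.12 against 7.82, 8.16 and 8.14, and its difference was 0.25 (interval -0.14 to 0.65). Groups overlapped in all 3 of these genes. Cyclin E genes showed little separation: Ccne2 measured 5.67, 5.86 and 6.05 against 5.97, 5.85 and 6.15 and Ccne1 7.0, 7.15 and 7.36 against 7.14, 7.36 and 7.38, each with a difference of 0.13 and intervals of -0.14 to 0.39 and -0.13 to 0.38. Of the replication enzymes, Pole measured 7.08, 7.10 and 7.46 against 7.43, 7.46 and 7.80 and had 0.35 (SE 0.132, adjusted p = 0.381). The helicase subunit Mcm2 measured 8.13, 8.11 and 8.47 against 8.26, 8.42 and 8.44, and Cre- replicate 3 was the highest of all 6 pools. Pola1, lowest of the set in spleen, had 0.25 in MLN with no overlap between the groups (interval 0.06 to 0.44, adjusted p = 0.361).

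**Figure D3:**
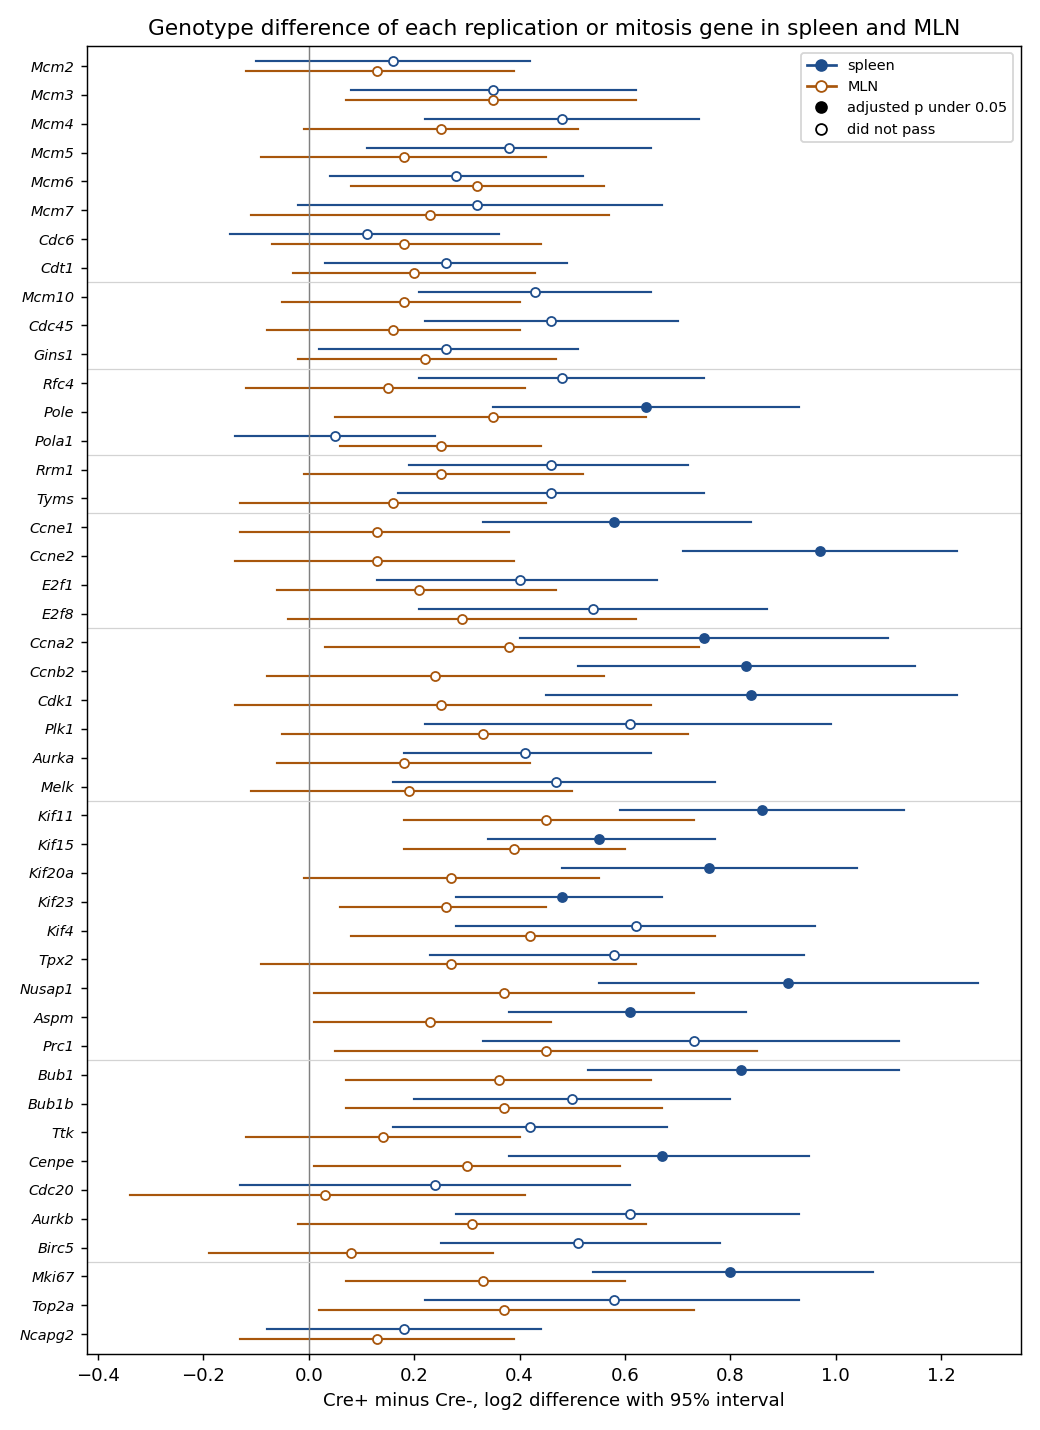
Cre+ minus Cre- log2 difference (horizontal axis) with its 95% interval for each of 45 genes, in spleen (blue) and MLN (orange), with 3 arrays a group and filled points for an adjusted p under 0.05. The 15 filled points are all in spleen, and all points lie right of 0 as deposited, while 3 of the MLN points (Mcm2, Rfc4 and Cdc20) turn below 0 after quantile normalization.

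The genotype difference was compared between the tissues directly, as the difference in MLN minus that in spleen. Of the 45 genes 0 were called in limma, against 0.163% of all probe sets, and 11 had an unadjusted p under 0.05 against 12.2%. The median was -0.27 against 0.06 over all probe sets, and 3 of 45 genes had a larger difference in MLN, which held for 59.6% of all probe sets. Ccne2 came nearest to the threshold, at -0.84 (interval -1.21 to -0.47, adjusted p = 0.0915). It was called when only probe sets with 1 symbol were tested (adjusted p = 0.0477), with arrays shifted to 1 median (adjusted p = 0.0489) and with array weights (adjusted p = 0.0115). Those settings called 0.453%, 0.197% and 4.32% of all probe sets. After quantile normalization over all arrays Ccne2 had -0.66 and was not called (adjusted p = 0.177). With quantile normalization within each tissue, dim probe sets left out, a trended and robust variance or the replicate block, 0 of the 45 genes were called. For Kif11 the value was -0.40 (interval -0.78 to -0.02) and for Mki67 -0.47 (interval -0.85 to -0.10), neither called. Mcm3 had the same difference of 0.35 in spleen and MLN, and the interval of its tissue difference ran from -0.38 to 0.38. The rise of these genes in spleen and its lack of a call in MLN are therefore not shown to differ. Ccne2 is excepted only under the 3 settings that called it. The Y-linked gene Eif2s3y differed between the genotypes by -6.73 in spleen and by 0.18 in MLN. The cells were also isolated differently, as CD11c+ DC with beads and as sorted CD11c+CD103+ DC. Tissue, sex and isolation therefore cannot be told apart in this comparison, that of Ccne2 included. Across the 45 genes the spleen and MLN differences correlated with r = 0.47, against 0.07 across all probe sets, a description across genes that share arrays and are not independent.

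**Figure D4:**
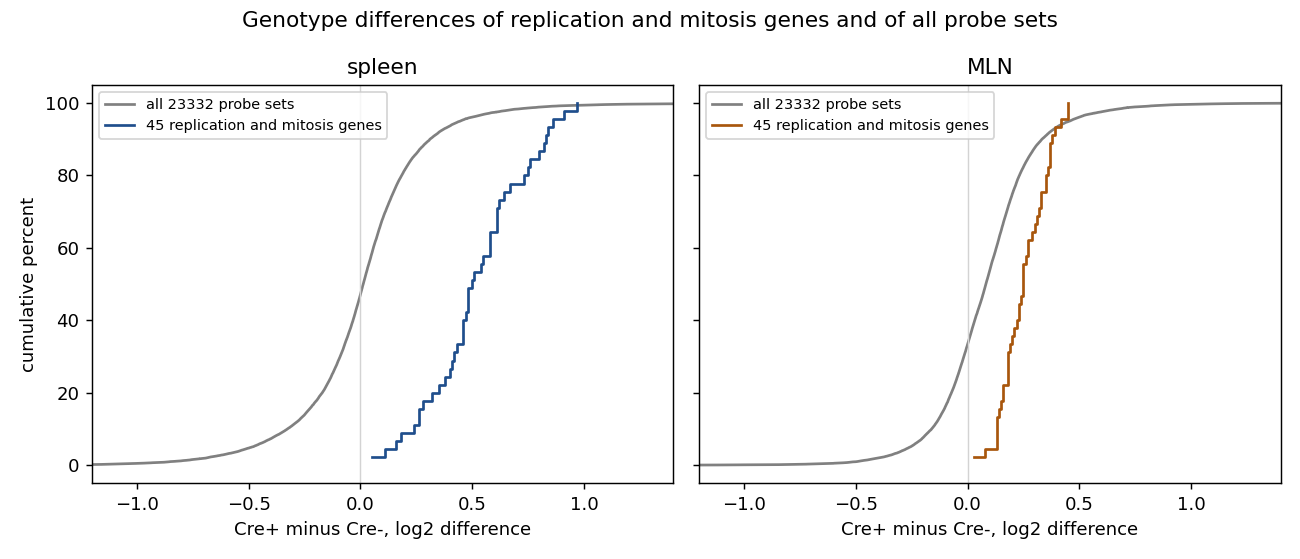
Cumulative percent of probe sets (vertical axis) by Cre+ minus Cre- log2 difference (horizontal axis) in spleen and MLN, for all 23332 probe sets (grey) and the 45 genes (coloured). The coloured curve lies right of the grey one over nearly its whole height, and crosses it near the top in MLN, with medians of 0.50 against 0.01 in spleen and 0.25 against 0.08 in MLN as deposited.

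Arrays of a group differed from one another in most of these genes at once. In spleen Cre-, replicate 3 was the lowest array for 37 of 45 genes and for 34.2% of all probe sets, and replicate 2 the highest for 31. In spleen Cre+, replicate 2 was the highest for 30 of 45 genes, against 25.6% of all probe sets, and replicate 3 the lowest for 30, against 32.6%. The median level over the 45 genes was 8.06, 8.25 and 7.82 in the 3 spleen Cre- arrays and 8.37, 8.54 and 8.49 in the 3 Cre+ arrays. These medians did not overlap between the genotypes. In MLN Cre-, replicate 3 was the highest for 42 of 45 genes, and in MLN Cre+, replicate 3 for 32, but the same arrays were also the highest for 53.9% and 52.2% of all probe sets. Median levels there were 7.11, 7.14 and 7.40 in Cre- and 7.31, 7.50 and 7.56 in Cre+.

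Levels set across the tissues were lower in MLN for most of the genes, as a description with no test. In Cre- mice 43 of 45 genes had a lower mean in MLN CD103+ DC than in splenic DC as deposited, with a median difference of -0.82 against -0.36 over all probe sets, of which 61.4% were lower. After quantile normalization over all arrays 30 of 45 were lower, against 47.8% of all probe sets, with a median of -0.18 against 0.03. The median position of the 45 genes among all probe sets of an array, which needs no common scale, averaged percentile 63.0 in spleen Cre-, 68.3 in spleen Cre+, 59.8 in MLN Cre- and 62.1 in MLN Cre+. The exceptions as deposited were Cdc20 and Ccne1. Cdc20 was higher in MLN, at 8.66 ± 0.22 against 7.97 ± 0.35 in spleen Cre- (SD, n = 3 each). Ccne1 measured 7.17 ± 0.18 against 7.02 ± 0.12, a gap within about 1 SD, and the means of Mcm10 were 7.14 ± 0.08 and 7.15 ± 0.13, equal within 1 SD.

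Other genes of the cell cycle were counted in the same fit. Among all probe sets 1.24% rose in spleen, and 1.23% were called in either direction after quantile normalization over all arrays. Of 40 other mitotic genes 15 rose in spleen (7 after quantile normalization over all arrays) and 25 did not pass, with a median of 0.47. Hmmr, a spindle-associated protein, rose by 1.06 (SE 0.142, adjusted p = 0.00834), Cdca8 of the chromosomal passenger complex by 0.72 (SE 0.086, adjusted p = 0.00479), the kinetochore gene Nuf2 by 0.70 (SE 0.106, adjusted p = 0.0108) and the spindle gene Ckap2 by 0.66 (SE 0.0987, adjusted p = 0.0106). Of 34 other replication genes 3 rose (1 after that normalization), with a median of 0.27: the fork protection gene Tipin by 0.65 (SE 0.0922, adjusted p = 0.00924), the single-strand binding protein gene Rpa2 by 0.45 (SE 0.0907, adjusted p = 0.0344) and the histone chaperone gene Asf1b by 0.70 (SE 0.145, adjusted p = 0.0378). Rpa1, of the same complex as Rpa2, had 0.35 (adjusted p = 0.0609).

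Among 29 cell cycle inhibitors and G1 regulators 1 rose in spleen, against 1.24% of all probe sets, and the median was 0.14. It was the D-type cyclin gene Ccnd3, by 0.50 (SE 0.109, adjusted p = 0.0431 in limma). The inhibitors of cyclin-dependent kinases did not pass, with Cdkn1a at 0.26, Cdkn1b at 0.04 and Cdkn2c at 0.23. The phosphatase gene Cdc25c had 0.63 (adjusted p = 0.0725), E2f7 0.33 and E2f5 0.33. In MLN 0 of these 103 genes passed in limma, with medians of 0.20, 0.18 and 0.16 for the mitotic, replication and regulator genes. The smallest p-values there were those of Rpa2 at 0.34, Prim2 at 0.30, Fen1 at 0.44 and Orc5 at 0.22 among replication genes, Kif20b at 0.41, Knl1 at 0.48, Smc2 at 0.34 and Anln at 0.39 among mitotic genes, and Cdkn2c at 0.37, Ccnd3 at 0.26, Cdk6 at 0.29 and Rbl1 at 0.29 among regulators.

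Markers of other cells moved with the spleen genotype as well. Of 11 genes of neutrophils and their precursors, which divide while immature, 8 rose, against 1.24% of all probe sets. Ngp rose by 2.70 and Lcn2 by 2.27, while Mmp9 had 0.12 (adjusted p = 0.87 in limma). The neutrophil sum of log2 levels was 86.5, 87.8 and 86.3 in the 3 Cre- and 106, 97.1 and 102.8 in the 3 Cre+ arrays, lowest in the Cre+ replicate 2 in which 30 of the 45 cell cycle genes were highest. The sum of the germinal centre B cell genes was 34.1, 35.0 and 33.6 in Cre- and 34.8, 35.4 and 35.8 in Cre+. In Cre- it was highest in replicate 2 and lowest in replicate 3, as were most of the cell cycle genes, whereas in Cre+ it was highest in replicate 3. Monocyte genes had 1 of 4 risen (Fcgr4, 1.25, and 0 of 4 after quantile normalization over all arrays). The differences of the 4 ran from -0.21 to 1.25 with a median of 0.17. Their summed level was 41.7 to 42.0 in Cre- and 42.8 to 43.5 in Cre+. Macrophage genes had 3 of 7 fallen (Axl among them, at -0.78), with 74.8 to 77.1 and 71.8 to 72.1. Plasmacytoid DC genes had 2 of 5 fallen (Ccr9 among them, at -0.82), with 51.6 to 52.9 and 49.1 to 50. Of all probe sets 0.93% fell. Among 8 erythroid precursor genes 0 passed, with sums of 51.7 to 52.0 in Cre- and 50.2 to 55.5 in Cre+, and likewise 0 of 6 B cell, 0 of 4 germinal centre, 0 of 5 plasma cell, 0 of 7 T cell, 0 of 5 NK cell and 0 of 4 progenitor genes passed in limma. Each of these lists had 1 gene with an unadjusted p under 0.05, except the erythroid list with 0, against 16.2% of all probe sets. Summed levels ran from 68.9 to 71.5 in Cre- and 69.9 to 71.4 in Cre+ for B cells, 67.4 to 69.1 and 63.8 to 71.3 for T cells, and 30.2 to 30.6 and 30.8 to 31.3 for progenitors. Plasma cell genes summed to 43.6 to 45.2 and 45.2 to 45.8. NK cell genes summed to 44.4, 44.4 and 46.0 in the 3 Cre- and 43.0, 48.8 and 47.8 in the 3 Cre+ arrays. In Cre+ the NK cell sum was highest in replicate 2, as were most of the cell cycle genes, whereas in Cre- it was highest in replicate 3. The germinal centre gene Gcsam had 0.61 (adjusted p = 0.156 in limma), the largest difference of the 4 genes of its list. Their median was 0.24 and the lowest was 0.03. RMA values have no true zero, so no marker can be read as absent. The part of these cells, or of sex, in the rise of replication and mitosis genes was not tested.

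In MLN 0 of 11 neutrophil genes passed, with summed levels of 63.5 to 64.4 in Cre- and 66.4 to 68.7 in Cre+ pools. The monocyte gene Fcgr4 rose by 1.83 and the macrophage gene Adgre1 by 0.90. After quantile normalization over all arrays 2 of 4 monocyte and 3 of 7 macrophage genes were called in limma, against 0.227% of all probe sets. The counts were 0 and 0 after quantile normalization within each tissue (0.0257% of all probe sets), and 1 and 0 after a shift to 1 median (0.0686%). The summed level of the 7 macrophage genes was 47.2 to 49.8 in Cre- and 52.2 to 53.3 in Cre+. The 5 NK cell genes summed to 33.6 to 35.6 and 38.7 to 39.1. Of them 0 were called and 5 had an unadjusted p under 0.05, against 11.9% of all probe sets. The germinal centre B cell genes summed to 32.2, 32.1 and 34.5 in the 3 Cre- and 31.9, 32.9 and 33.9 in the 3 Cre+ pools, highest in replicate 3 of each group, as were most of the cell cycle genes and 53.9% and 52.2% of all probe sets. The dendritic cell genes, at 37.8, 37.9 and 39.3 and at 38.0, 38.4 and 39.2, were also highest in replicate 3. T cell genes, 7 in number, summed to 70.6 to 71.8 in Cre- and 70.5 to 72.2 in Cre+ pools. The 6 B cell genes summed to 64.5 to 65.5 and 65.0 to 65.5, and 0 genes of either list were called in limma. The part of these cells in the values of the cell cycle genes in MLN was not tested.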

How the data were processed

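The authors summarised each array to gene level with RMA in GeneSpring and deposited log2 values, per the labels and the range of the values. The software version, probe annotation and genome build are not given in the sources used here, nor whether both tissues were normalized together. All 23332 probe sets were analysed as deposited with limma 3.58.1 in R 4.3.3: 4 group means over 12 arrays, 8 residual and 2.66 prior degrees of freedom, eBayes, two-sided tests adjusted by Benjamini-Hochberg over all probe sets, called at an adjusted p under 0.05. Intervals are 95%. The number of arrays limits the precision. Gene symbols came from the platform's annotation, and chromosomes and promoters came from RefSeq tables of GRCm38.p6.

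The genes and lists were chosen with earlier results of these data known. All 45 genes measured are named, with every array's value for those called in a genotype comparison and for Mki67, Mcm2, Top2a and Cdk1. Of each other pathway list the 4 genes of smallest p and Cdkn1a, Cdkn1b and Cdkn2c are named, and of marker lists up to 3 of highest mean. Itgae was added as the gene of the sorted antigen CD103.

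The fit was tested on simulated data, where part of the changes set in spleen was missed. A gene that did not pass is therefore not shown to be unchanged. Replicate numbers were not used as pairs in the main fit. Deviations from group means of same-numbered arrays correlated at -0.14 to -0.0026 in spleen, and those of differently numbered arrays at -0.048 to 0.13. In MLN same-numbered pools correlated at 0.0015 to 0.31, and differently numbered ones at -0.29 to 0.14. Replicates 1 and 3 of MLN, at 0.20 and 0.31, stood above every differently numbered pair, so replicate numbers may link the MLN pools. Alternatives were 2 quantile normalizations (that within each tissue was added after the data were seen), a shift to 1 median, removal of dim probe sets (no group mean over 6.37, percentile 40 of the values, leaving 15737), a fit restricted to 1-symbol probe sets, a trended and robust variance, array weights, each tissue alone, a replicate block, all probe sets of a gene and omission of each array.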

Additional observations from a re-analysis of the deposited data

How the results depend on the processing

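Of 45 genes, 15 were called in spleen as reported, with 2.17% of all probe sets. The count was 9 after quantile normalization over all arrays (1.23% of all probe sets), 23 with dim probe sets left out (4.38%), 23 with probe sets of 1 symbol only (3.21%), 38 with array weights (11.8%) and 0 with the splenic arrays alone (0.0771%), which leave fewer degrees of freedom. It was 22 after quantile normalization within each tissue (2.97%) or a shift to 1 median (2.76%), 15 with a trended and robust variance (2.3%) or all probe sets, 16 with the replicate block (1.2%), under which Ccnb2 and Kif23 lost their calls, and 3 to 22 when 1 array was left out (0.604% to 2.22%). The median difference stayed between 0.41 and 0.57 under these settings, and none of the 15 called genes turned its sign in 315 recomputed values. In MLN array weights called 12 of the 45 genes and 4.14% of all probe sets. The MLN count was 0 under the other alternatives, each omission included. For the difference between tissues, 1 gene (Ccne2) was called after a shift to 1 median (0.197% of all probe sets), with probe sets of 1 symbol only (0.453%) and with array weights (4.32%). That count was 0 as reported, after either quantile normalization, with dim probe sets left out, with a trended and robust variance and with the replicate block. The median level of the genes moved to 7.75 in spleen Cre-, 8.10 in spleen Cre+, 7.54 in MLN Cre- and 7.69 in MLN Cre+ after quantile normalization over all arrays, from 8.04, 8.47, 7.22 and 7.46. Otherwise the cause was not tested.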

Other observations

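The second probe set annotated to Plk1, whose group means lay below the limit for dim probe sets of 6.37, had a genotype difference of 0.39 in spleen (interval 0.06 to 0.72) and of -0.11 in MLN (interval -0.44 to 0.22). Neither was called.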
